A study of Mus musculus with 12 samples.

Results

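The 52 genes described here encode heterotrimeric G proteins and the regulators of G protein signalling (RGS proteins), and were taken from a table of 24964 genes by symbol alone. The rule took G protein alpha genes (Gnas, Gnal, Gnaq, Gnaz, Gnai1 to Gnai3, Gnao1, Gnat1 to Gnat3 and the numbered Gna genes), Gnb1 to Gnb5, numbered Gng genes and numbered Rgs genes. It found 16 alpha, 5 beta, 10 gamma and 21 RGS genes, of which 42 had enough counts to be tested. The libraries were made from uterine tissue of mice at 13.5 days post coitum (dpc), 4 in each of 3 groups. PGR-B OE mice (Myh11Cre; LSLPGRB/+) overexpressed isoform B of the progesterone receptor, PGR-A OE mice (Myh11Cre; LSLPGRA/+) overexpressed isoform A, and control mice carried Myh11Cre alone, so that the Cre driver was common to all groups. Myh11 encodes smooth muscle myosin heavy chain and its promoter directs Cre to smooth muscle, in the myometrium and in vessel walls, while the tissue sequenced was labelled uterine tissue as a whole.

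A heterotrimeric G protein carries the signal of a receptor at the cell surface. The active receptor loads the alpha subunit with GTP, and the alpha subunit and the beta-gamma pair then act on separate effectors until the GTP is hydrolysed. In uterine smooth muscle, Gq and G11 couple the oxytocin and prostaglandin F receptors to phospholipase C and calcium release, Gs raises cyclic AMP and favours relaxation, and Gi opposes Gs. RGS proteins speed up GTP hydrolysis: the R4 family acts on Gq and Gi, the RZ family on Gi and Gz, the R7 family works in a complex with Gnb5, and the R12 family acts on Gi.

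The libraries held 31872534 to 33078483 counts assigned to genes, and the 52 genes took 0.412% to 0.467% of them. The gene-level count of Pgr does not tell isoform A from B, nor transgene from endogenous transcripts. How far transgene reads were counted in it is not given. Pgr averaged 223 ± 26.5 counts scaled to library size (CPM) in PGR-B OE, 199.7 ± 38.5 CPM in PGR-A OE and 121 ± 16.5 CPM in control uteri (SD, n = 4 each). In Pgr neither overexpression group overlapped the control (exact permutation p = 0.0286 for each, two-sided, the smallest possible). In edgeR the adjusted p was 0.0196 in PGR-B OE and 0.0416 in PGR-A OE, and of 12 fits that each left out 1 library it passed 0.05 in 6 for PGR-B OE and in 3 for PGR-A OE. Replicate 4 of PGR-A OE lay farthest from the other libraries in a principal component analysis, on an axis with 23.0% of the variance. Its summed decidual and trophoblast markers were the lowest of the 12 libraries at 11.04 CPM, while control replicate 4 had the highest sum at 5073 CPM. The 10 smooth muscle markers were all detected. Their summed level was 13443 to 17897 CPM in PGR-B OE, 18982 to 25818 CPM in PGR-A OE and 13921 to 18351 CPM in control uteri. The 4 fibroblast markers summed to 15996 to 20168 CPM in PGR-B OE, 15459 to 19536 CPM in PGR-A OE and 13300 to 14234 CPM in control uteri. Col1a1 made up most of that sum, and the median log2 change of the 4 markers was -0.01 in PGR-B OE (-0.14 to 0.45) and 0.00 in PGR-A OE (-0.10 to 0.39), with 2 of 4 above 0 and 0 of 4 passing in edgeR in each.

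Which subunits the pregnant uterus used was read from CPM per kilobase of gene length, the only scale on which different genes are compared here. Means over the 12 libraries are given, and the plot of per-length levels shows each group. Gng12, a widely expressed gamma subunit, had the highest level of all 52 genes at 252 CPM per kb. It was followed by Gnai2 (169 CPM per kb), Gnb2 (136 CPM per kb), Gnas (117 CPM per kb), Gnb1 (102 CPM per kb), Gng5 (96.2 CPM per kb), Rgs2 (91.6 CPM per kb) and Rgs5 (78.2 CPM per kb). Thus alpha, beta and gamma subunits and the RGS genes were all represented among these members. The highest genes of the G12/13 and Gq/11 alpha classes, Gna12 and Gna11, ranked 11 and 12 of the 52. When the longest annotated transcript was used as the length, 9 of the 10 highest members stayed among the 10 highest: Gng5 left them with 21.3 CPM per kb, and Gnas stood second with 243 CPM per kb.

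**Figure D1:**
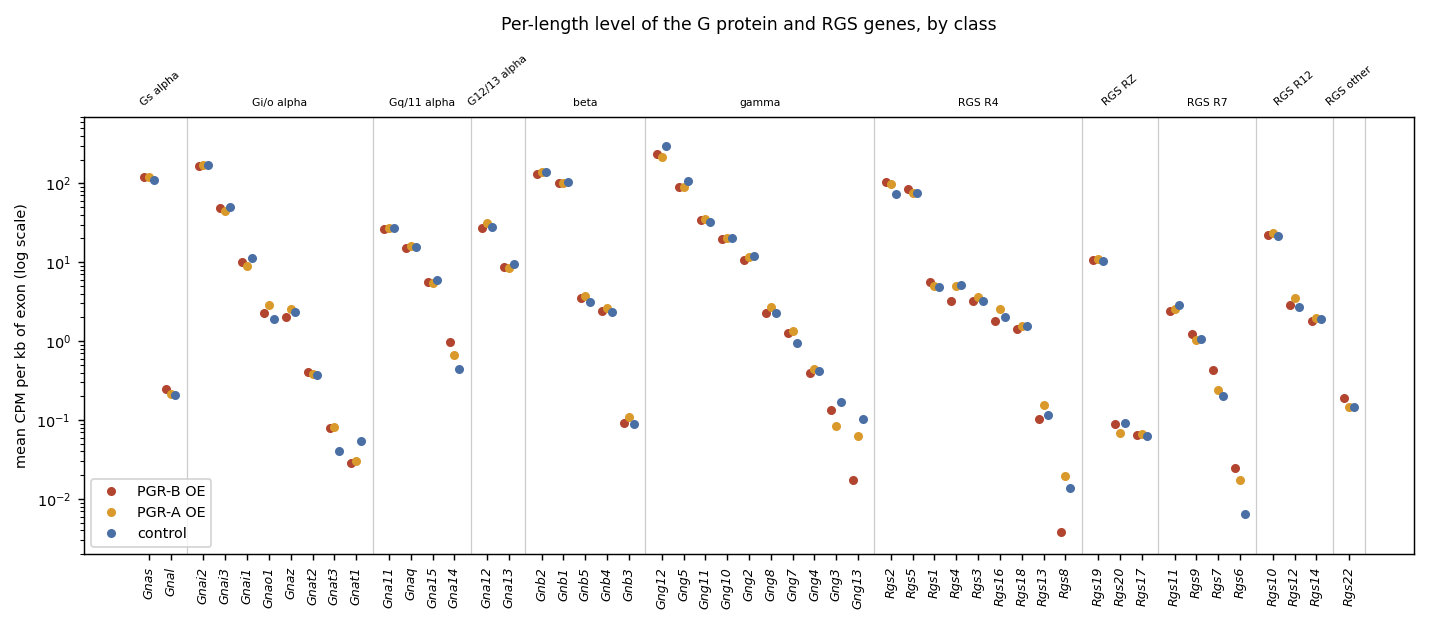
Mean level of each G protein and RGS gene in CPM per kilobase of gene length (log scale), with red for PGR-B OE, yellow for PGR-A OE and blue for control (mean of 4 libraries each) and genes ordered by level within each class. Rgs21, which had no count, is not drawn. Gng12, Gnai2, Gnb2, Gnas and Gnb1 exceed 100 CPM per kb in every group.

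Among the alpha subunits, the Gi/o class made up 52.6% ± 1.40 of the summed per-length level in PGR-B OE, 52.6% ± 1.03 in PGR-A OE and 54.3% ± 0.618 in control uteri (SD, n = 4 each). The Gs class held 27.8% ± 1.59 in PGR-B OE, 27.5% ± 1.26 in PGR-A OE and 25.6% ± 1.06 in control uteri. The Gq/11 class, to which the contractile receptors couple, held 11.2% ± 0.417 in PGR-B OE, 11.03% ± 0.268 in PGR-A OE and 11.4% ± 0.530 in control uteri, and the G12/13 class held 8.34% ± 0.572 in PGR-B OE, 8.88% ± 0.296 in PGR-A OE and 8.73% ± 0.222 in control uteri. The total alpha level was 432 ± 9.59 CPM per kb in PGR-B OE, 443 ± 5.68 in PGR-A OE and 433 ± 5.53 in control uteri. These shares and totals rest on the deposited gene lengths and were not recomputed on another length. With the longest annotated transcript as the length, Gnas rose from 117 to 243 CPM per kb, above Gnai2 at 166. Gna12 fell from 28.9 to 15.9 CPM per kb. The order of the Gi/o and Gs classes therefore depends on the length used. Each of the differences in Gq/11 share was smaller than the larger SD of the groups compared. The Gi/o and Gs shares of both overexpression groups differed from the control by more than the larger SD. The Gi/o share in PGR-A OE libraries (51.4% to 53.6%) lay below that in control libraries (53.7% to 55.0%). It overlapped the control in PGR-B OE, and the Gs shares of both groups overlapped the control. The shares were not tested.

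Gnb2 and Gnb1 supplied nearly all of the beta subunit level, with Gnb2 at 55.4% ± 1.84 in PGR-B OE, 56.2% ± 1.46 in PGR-A OE and 55.3% ± 1.93 in control uteri. Among the gamma subunits, Gng12 supplied 59.4% ± 6.07 in PGR-B OE, 57.0% ± 2.82 in PGR-A OE and 62.9% ± 4.52 in control uteri, and Gng5 supplied 22.9% ± 3.05 in PGR-B OE, 23.9% ± 1.41 in PGR-A OE and 22.6% ± 1.32 in control uteri. These shares and the gamma total rest on a deposited Gng5 length of 535 bp. With its longest transcript of 2419 bp, Gng5 stood at 21.3 CPM per kb, under Gng11 at 30.9. The gamma shares and total were not recomputed on that length. The total gamma level was 396 ± 38.2 CPM per kb in PGR-B OE, 379 ± 36.5 in PGR-A OE and 477 ± 30.7 in control uteri. PGR-A OE libraries (344 to 415 CPM per kb) lay below all control libraries (433 to 503 CPM per kb), whereas PGR-B OE libraries (344 to 435 CPM per kb) overlapped them. In bulk tissue, fewer cells of a type and less RNA per cell cannot be told apart.

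Among the RGS genes, Rgs2 and Rgs5 of the R4 family supplied most of the level. Rgs2 held 41.9% ± 5.58 in PGR-B OE, 40.9% ± 6.496 in PGR-A OE and 35.1% ± 5.92 in control uteri, and Rgs5 held 34.1% ± 2.23 in PGR-B OE, 32.1% ± 3.32 in PGR-A OE and 36.9% ± 4.90 in control uteri. The R12 family, mainly Rgs10, held 11.3% ± 3.18 in PGR-B OE, 12.6% ± 2.32 in PGR-A OE and 12.7% ± 0.899 in control uteri. The RZ family, mainly Rgs19, held 4.47% ± 0.510 in PGR-B OE, 4.89% ± 0.698 in PGR-A OE and 5.07% ± 0.445 in control uteri.

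**Figure D2:**
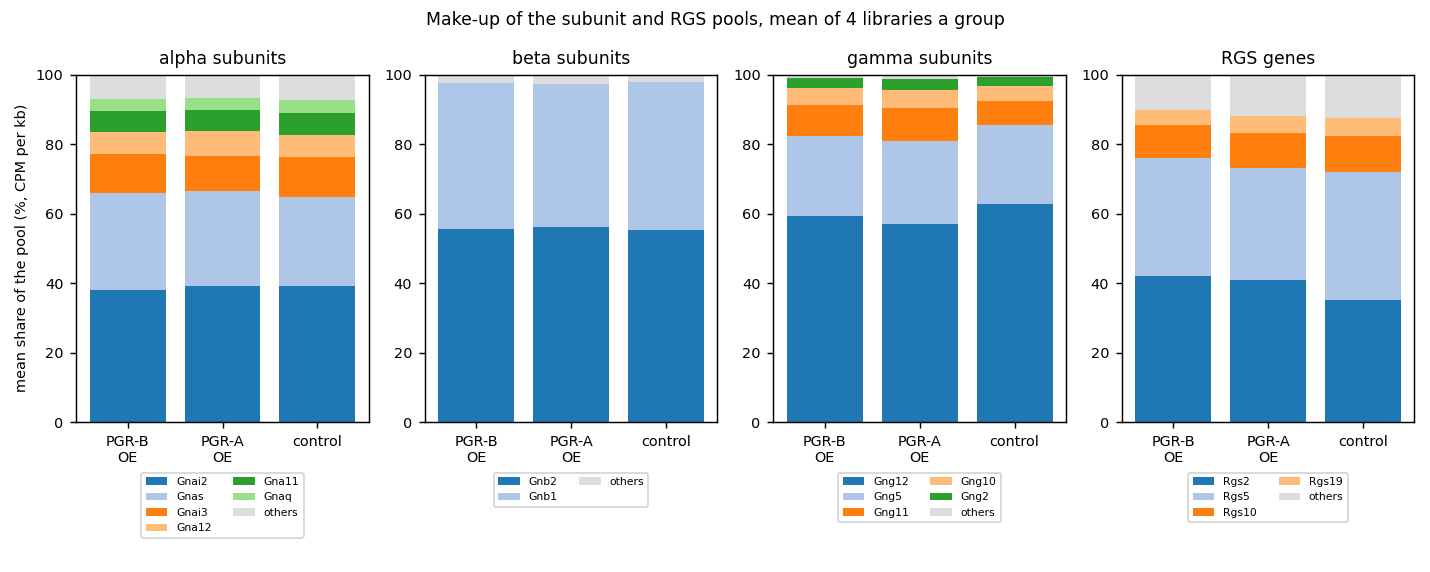
Mean share of each gene in the summed CPM per kb of the alpha, beta, gamma and RGS genes (%, mean of 4 libraries a group; bars from left to right are PGR-B OE, PGR-A OE and control; genes below 2% or 3% of a pool are joined as others). On the deposited gene lengths, Gnai2 and Gnas lead the alpha subunits, Gnb2 and Gnb1 the beta subunits, Gng12 and Gng5 the gamma subunits and Rgs2 and Rgs5 the RGS genes in each group. The places of Gnas and Gng5 depend on the length used.

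The 10 members that were not tested had 0 to 85 counts over the 12 libraries and at most 0.541 CPM in any library. They were the alpha genes Gnat1, known for vision, and Gnat3, known for taste, Gnb3, Gng3, Gng13, and Rgs6, Rgs8, Rgs13, Rgs20 and Rgs21. Rgs21 had 0 counts in every library, which allows a level of up to 0.0874 to 0.0967 CPM, depending on the library (3 counts, counting error only). No statement on a difference in these genes is made at this depth.

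The comparisons of the overexpression groups with the control asked whether more of either receptor isoform in smooth muscle went with a change in the G protein machinery. In PGR-A OE against control uteri, 0 of the 42 members passed an adjusted p of 0.05 in edgeR's quasi-likelihood test, in a comparison that called 0.655% of all 15561 genes. At an unadjusted p under 0.05 there were 6 members (14.3%), where 15.4% of all genes passed. DESeq2 called 1 member, Gnao1 (3.64% of all genes), and limma voom called 0 (0.611% of all genes). The median log2 change of the members was 0.04, and of all genes 0.00.

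Gnao1, the alpha subunit of Go, best known from neurons, came nearest to the threshold. It lies on chromosome 8 (93809966 to 93969388, plus strand, GRCm38). Its level was 21.9, 21.3, 19.4 and 25.6 CPM in the PGR-A OE libraries, against 13.8, 13.8, 18.4 and 12.5 CPM in the control libraries. The lowest PGR-A OE library was above the highest control library. The log2 change was 0.59 (SE 0.13, 95% confidence interval 0.32 to 0.87), with an adjusted p of 0.0602 in edgeR, 0.00173 in DESeq2 and 0.054 in limma voom. Without control replicate 3, the highest control, the log2 change was 0.72 and edgeR's adjusted p was 0.0155. Of 12 fits that each left out 1 library, this was the only 1 that passed 0.05. The lowest log2 change was 0.51, without PGR-A OE replicate 4, and edgeR's adjusted p reached up to 0.211 over the 12 fits. In PGR-B OE libraries Gnao1 was at 19.0, 15.8, 16.9 and 18.7 CPM, a range that overlapped the control through its replicate 3, with a log2 change of 0.27 (SE 0.13, adjusted p = 0.552 in edgeR).

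Marker levels were set beside Gnao1. The 5 neuron and glia markers summed to 2.698 to 4.58 CPM in PGR-A OE and 2.29 to 4.14 CPM in control uteri, with none at 0 in every library. The smooth muscle sum given above did not overlap between PGR-A OE and control, and all 10 smooth muscle markers had a log2 change above 0, while 0 of 10 passed the adjusted threshold in edgeR and 3 of 10 in DESeq2. The 8 mural cell markers summed to 622 to 719 CPM in PGR-A OE and 500 to 602 CPM in control uteri, with Cspg4 alone passing the threshold in edgeR and 3 of 8 in DESeq2. The part of muscle, mural cell and fibroblast content in the Gnao1 value was not tested. An antisense gene model, 4930488L21Rik, overlaps Gnao1 exons, and the use of strand in counting is not given in the sources used here. The same limit holds for Gng12, Rgs12, Gna13, Gnb5, Gna12, Gng2 and Rgs11, whose exons also overlap antisense models.

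The promoters of Gnao1 and of Rgs12, the member with a positive log2 change and the next lowest p in that comparison, are shown because progesterone receptor binds a known hexamer, TGTTCT, that can be looked for in them. Each is a RefSeq window (GRCm38.p6, plus strand) of 250 bases before to 50 bases after a transcript start, in lower case with any TGTTCT (either strand) in capitals; the Gnao1 window is chr8:93810588-93810887 and the Rgs12 window chr5:34998828-34999127.
Gnao1: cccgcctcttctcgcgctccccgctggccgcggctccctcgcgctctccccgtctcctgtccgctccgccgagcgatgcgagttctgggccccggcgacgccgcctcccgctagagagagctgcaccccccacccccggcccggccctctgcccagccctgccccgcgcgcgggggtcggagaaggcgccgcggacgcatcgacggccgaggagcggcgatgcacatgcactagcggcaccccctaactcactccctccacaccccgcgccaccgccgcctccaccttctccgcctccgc
Rgs12: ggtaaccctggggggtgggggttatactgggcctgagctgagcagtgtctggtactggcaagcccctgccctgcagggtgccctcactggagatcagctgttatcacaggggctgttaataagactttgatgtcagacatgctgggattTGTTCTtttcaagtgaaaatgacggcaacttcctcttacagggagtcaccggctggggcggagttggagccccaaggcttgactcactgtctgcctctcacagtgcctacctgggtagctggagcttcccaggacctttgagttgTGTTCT
The Gnao1 window held no match, and the Rgs12 window held 2, while the window of the upstream Rgs12 start held 0. Over the 39 member genes with a window, TGTTCT stood in 12 of 52 windows (23.1%), against 19% of all 32851 windows; windows of a gene with several starts can overlap. The palindrome GNACANNNTGTNC, which takes in a pair of such hexamers, was in 0 of the 52 member windows and 0.475% of all windows, and the CArG box of smooth muscle genes was in 0 of the 52 and 1.63% of all. A match is a description of the letters, and the hexamer was about as frequent in the members as in other promoters.

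Gng12 was lower and Rgs12 higher in PGR-A OE uteri at an unadjusted p under 0.05 only. Gng12 (chromosome 6, 66896397 to 67021350, plus strand) was at 807, 1035, 1089 and 856 CPM in PGR-A OE libraries, against 1414, 1338, 1437 and 1063 CPM in control libraries. Control replicate 4 alone lay within the PGR-A OE range. The log2 change was -0.47 (SE 0.16, 95% confidence interval -0.81 to -0.13, adjusted p = 0.189 in edgeR). Rgs12 (chromosome 5, 34949445 to 35039644, plus strand), an R12 member with a second G alpha binding motif besides its RGS domain, was at 20.3, 18.2, 15.3 and 25.5 CPM in PGR-A OE libraries, against 15.4, 14.7, 15.5 and 15.0 CPM in control libraries. Its control values were close together while its PGR-A OE values were spread, and replicate 3 lay among the controls. Its log2 change was 0.39 (SE 0.13, adjusted p = 0.204 in edgeR), and 0.24 without PGR-A OE replicate 4.

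The other members in that group of 6 had smaller log2 changes. Gng5 (chromosome 3, 146499807 to 146505572) was at 45.3, 53.1, 54.9 and 41.0 CPM in PGR-A OE libraries, against 56.0, 63.0, 58.5 and 52.7 CPM in control libraries, with overlap at control replicate 4 (log2 change -0.24, SE 0.10, adjusted p = 0.264 in edgeR). Gna13, an alpha subunit of the G12/13 class, was at 59.9, 50.5, 53.6 and 51.5 CPM in PGR-A OE libraries, against 62.7, 65.3, 54.2 and 64.3 CPM in control libraries, with replicate 1 of PGR-A OE among the controls (log2 change -0.19, SE 0.08, adjusted p = 0.266 in edgeR). Gnb5, the beta subunit that pairs with R7 RGS proteins, was at 10.5, 9.41, 9.28 and 10.2 CPM in PGR-A OE libraries, against 8.41, 7.76, 8.43 and 8.61 CPM in control libraries, without overlap (log2 change 0.24, SE 0.10, adjusted p = 0.269 in edgeR). Groups did not overlap for 3 members, Gnao1, Gnb5 and Gna12, which is 7.14% of the 42, where 10.6% of all genes did not overlap.

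**Figure D3:**
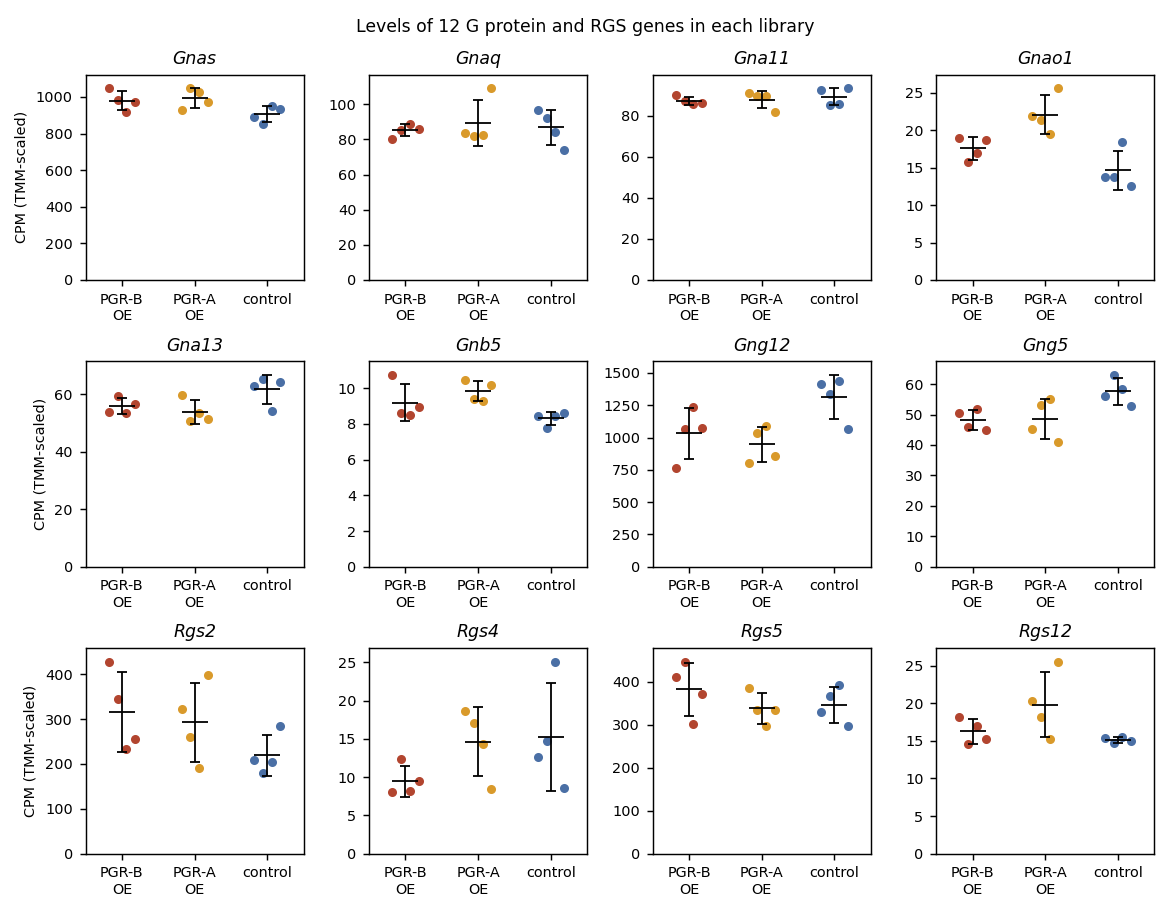
Levels of 12 G protein and RGS genes in CPM (TMM-scaled) in each library, with the mean and SD of the 4 libraries in PGR-B OE (red), PGR-A OE (yellow) and control (blue); points of a group run from replicate 1 on the left to replicate 4. Gnao1 and Gnb5 of PGR-A OE lie above the control without overlap, while Gnas, Gnaq, Gna11 and Rgs5 overlap in both comparisons with the control.

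In PGR-B OE against control uteri, 0 of the 42 members passed in edgeR, in a comparison that called 0.308% of all genes, and DESeq2 and limma voom, which called 1.43% and 0.244% of all genes, called 0 members. At an unadjusted p under 0.05 there were 6 members (14.3%), where 9.28% of all genes passed. The median log2 change was -0.02 over the members and -0.01 over all genes. Groups did not overlap for Gng5 and Gng2, which is 4.76% of the 42 against 5.67% of all genes.

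Gng5 had the lowest p of these. It was at 50.4, 45.8, 51.7 and 44.9 CPM in PGR-B OE libraries, all under the control values given above, with a log2 change of -0.26 (SE 0.10, 95% confidence interval -0.47 to -0.05, adjusted p = 0.448 in edgeR). Gng12 was at 764, 1068, 1237 and 1070 CPM in PGR-B OE libraries, with replicate 1 alone under the control range, and a log2 change of -0.34 (SE 0.16, adjusted p = 0.532 in edgeR) that was -0.22 without that library. Gng2, another gamma subunit, was at 44.3, 41.5, 40.3 and 43.8 CPM in PGR-B OE libraries, against 45.2, 47.3, 53.0 and 45.4 CPM in control libraries (log2 change -0.17, adjusted p = 0.641 in edgeR). The fibroblast sum in PGR-B OE lay above that in the control without overlap, as did Col1a1 alone of the 4 markers, whereas the smooth muscle sums overlapped. The 4 epithelial markers all had log2 changes below 0 against control, with a median of -0.16 in PGR-B OE and -0.22 in PGR-A OE. Their sums overlapped, at 975 to 1454 CPM in PGR-B OE, 914 to 1195 CPM in PGR-A OE and 1012 to 1433 CPM in control uteri. The part of fibroblast, muscle and epithelial content in the gamma values was not tested.

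Rgs2, which acts on Gq alpha above all, was at 428, 344, 232 and 256 CPM in PGR-B OE libraries, 323, 259, 192 and 398 CPM in PGR-A OE libraries, and 208, 180, 204 and 285 CPM in control libraries. Its replicates were spread in each group and the groups overlapped. The log2 change was 0.52 (SE 0.24, adjusted p = 0.536 in edgeR) in PGR-B OE and 0.42 (SE 0.24, adjusted p = 0.425) in PGR-A OE against control. It was 0.34 in PGR-B OE without its replicate 1 and 0.23 in PGR-A OE without its replicate 4. Rgs4, which acts on Gq and Gi alpha, was at 7.99, 12.3, 8.12 and 9.42 CPM in PGR-B OE libraries, against 12.6, 14.7, 25.1 and 8.52 CPM in control libraries, with a log2 change of -0.68 (SE 0.31, adjusted p = 0.534 in edgeR) that was -0.33 without control replicate 3. In PGR-A OE libraries Rgs4 was at 18.6, 17.0, 14.4 and 8.43 CPM, which spans much of the control range, with a log2 change of -0.06 (SE 0.31, adjusted p = 0.951 in edgeR).

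Rgs5, common in vessel walls, was at 410, 446, 300.2 and 370 CPM in PGR-B OE libraries, 386, 335, 297 and 334 CPM in PGR-A OE libraries, and 330, 366, 392 and 297 CPM in control libraries. The groups overlapped, with log2 changes of 0.14 (SE 0.13, adjusted p = 0.806 in edgeR; 0.06 without replicate 2 and 0.24 without replicate 3) in PGR-B OE and -0.03 (SE 0.13, adjusted p = 0.929) in PGR-A OE against control. Rgs4 (169741477 to 169747642) and Rgs5 (169655501 to 169695813) are neighbours on chromosome 1.

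The Gq class pair that couples contractile receptors had intervals that included 0 in both comparisons, wider for Gnaq than for Gna11. Gnaq was at 80.5, 85.2, 89.0 and 85.9 CPM in PGR-B OE libraries, 83.4, 82.1, 82.6 and 109 CPM in PGR-A OE libraries, and 96.8, 92.3, 84.2 and 73.8 CPM in control libraries. Its log2 change had a 95% confidence interval of -0.26 to 0.20 in PGR-B OE and -0.19 to 0.27 in PGR-A OE against control. Gna11, on chromosome 10 beside Gna15, was at 89.9, 86.9, 85.6 and 86.0 CPM in PGR-B OE libraries, 90.8, 89.4, 89.3 and 81.6 CPM in PGR-A OE libraries, and 92.5, 85.2, 85.8 and 93.2 CPM in control libraries. The interval of its log2 change was -0.16 to 0.09 in PGR-B OE and -0.15 to 0.10 in PGR-A OE. Gna14, a further Gq class member and the neighbour of Gnaq on chromosome 19, was at 6.93, 1.98, 1.29 and 2.85 CPM in PGR-B OE libraries, against 0.967, 1.34, 1.36 and 2.41 CPM in control libraries. Its log2 change of 1.101 (SE 0.47, adjusted p = 0.507 in edgeR) was 0.42 without PGR-B OE replicate 1, the library far above the rest.

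Gnas, the Gs alpha gene, was at 1046, 984, 916 and 975 CPM in PGR-B OE libraries, 926, 1048, 1029 and 970 CPM in PGR-A OE libraries, and 890, 850.3, 948 and 935 CPM in control libraries. Gnas exons overlap the antisense model Nespas. The gene has several annotated transcript starts, and its count does not tell their transcripts apart, so the Gs level and share are for the whole gene. The groups overlapped, with log2 changes of 0.11 (SE 0.08, adjusted p = 0.714 in edgeR) in PGR-B OE and 0.13 (SE 0.08, adjusted p = 0.439) in PGR-A OE. The highest Gi, beta and G12/13 members had intervals that stayed within 0.31 of 0 on the log2 scale in both comparisons: Gnai2 had -0.20 to 0.12 in PGR-B OE and -0.13 to 0.19 in PGR-A OE, Gnb2 had -0.21 to 0.10 in PGR-B OE and -0.15 to 0.16 in PGR-A OE, and Gna12 had -0.22 to 0.13 in PGR-B OE and -0.04 to 0.31 in PGR-A OE. The leading members of the RZ, R12, R7 and remaining RGS families, Rgs19, Rgs10, Rgs11 and Rgs22, had log2 changes of 0.06, 0.04, -0.25 and 0.38 in PGR-B OE and 0.11, 0.12, -0.17 and -0.01 in PGR-A OE, with adjusted p values from 0.67 to 0.996 in edgeR. The value of Rgs11 in PGR-B OE was -0.43 without replicate 1 and -0.11 without replicate 4, and that of Rgs22 was -6.78e-05 without replicate 1. In PGR-A OE, Rgs11 was -0.09 without replicate 2, Rgs10 was 0.06 without replicate 4 and 0.21 without control replicate 3, and Rgs19 was 0.04 without control replicate 2 and 0.18 without control replicate 4. Rgs7, an R7 member, had an unadjusted p under 0.05 in PGR-B OE at levels of 0.855, 1.34, 0.644 and 1.53 CPM, against 0.193, 0.668, 0.695 and 0.506 CPM in control libraries (log2 change 1.08, SE 0.49, adjusted p = 0.533 in edgeR).

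**Figure D4:**
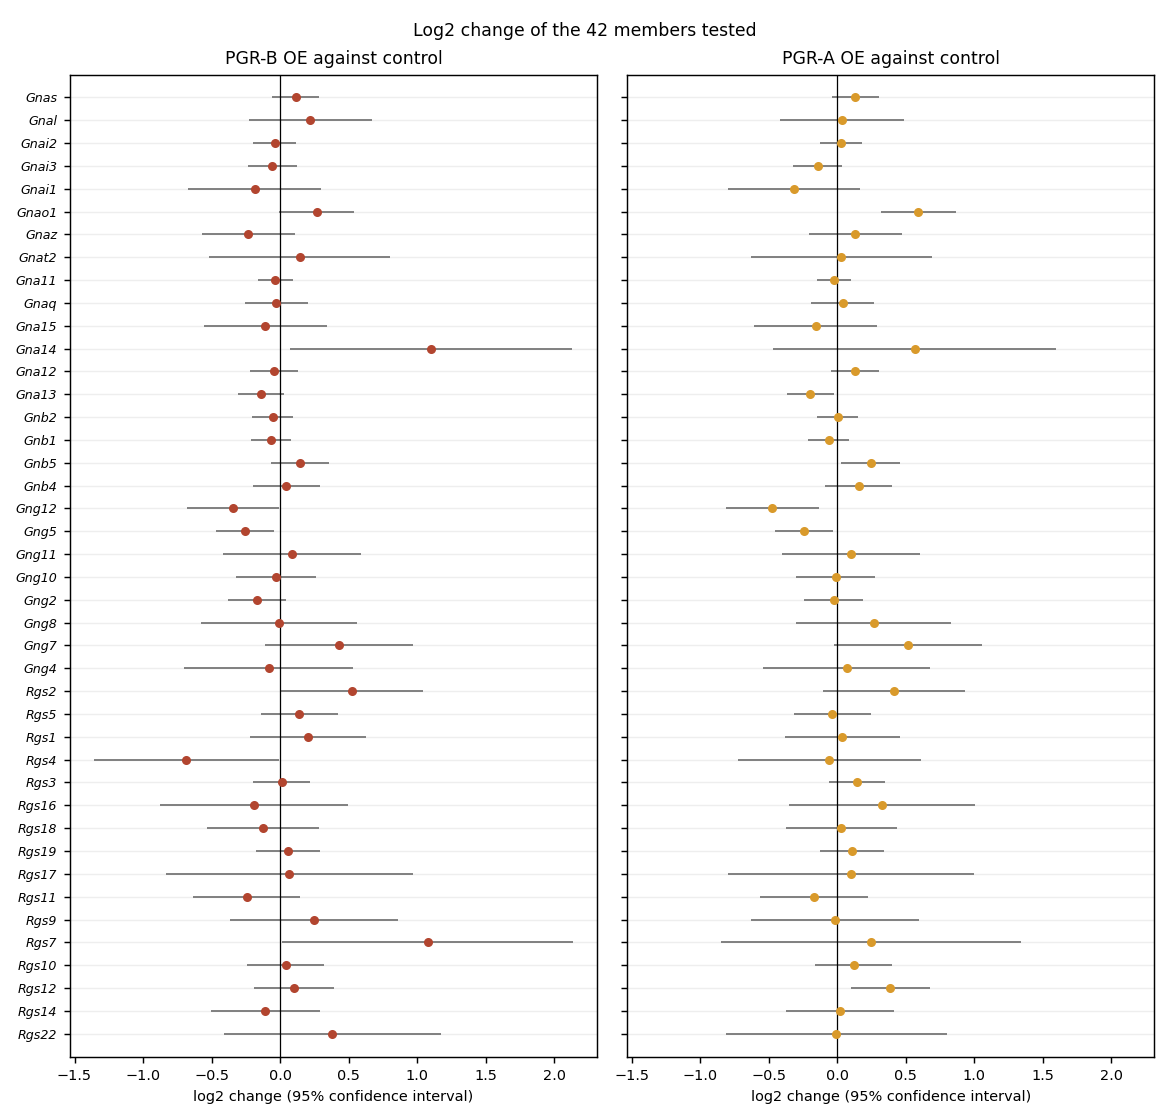
Log2 change (edgeR) with its 95% confidence interval of the 42 tested genes, in PGR-B OE (left, red) and PGR-A OE (right, yellow) against control, with genes ordered by class. The interval of Gnao1 in PGR-A OE runs from 0.32 to 0.87, that of Gna11 in PGR-A OE from -0.15 to 0.10, and Gna14 and Rgs7, at low levels, have wide intervals.

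The comparison of PGR-B OE with PGR-A OE asked whether the isoforms differed. In edgeR 0 of the 42 members passed, in a comparison that called 0.116% of all genes, and DESeq2 and limma voom, which called 0.813% and 0.135% of all genes, called 0. At an unadjusted p under 0.05 there were 3 members (7.14%), where 8.04% of all genes passed. Gnao1 was lower in PGR-B OE, at the CPM values given above and without overlap (log2 change -0.33, SE 0.12, 95% confidence interval -0.60 to -0.06, adjusted p = 0.549 in edgeR). Gnaz, the alpha subunit of Gz, was at 7.14, 7.40, 6.51 and 7.19 CPM in PGR-B OE libraries, against 8.45, 9.35, 7.87 and 10.7 CPM in PGR-A OE libraries, also without overlap (log2 change -0.37, SE 0.16, adjusted p = 0.599 in edgeR). Gna12, of the same class as Gna13, was at 55.3, 43.1, 57.0 and 50.5 CPM in PGR-B OE libraries, against 58.0, 59.5, 59.8 and 55.8 CPM in PGR-A OE libraries, with the highest PGR-B OE value inside the other group (log2 change -0.18, SE 0.08, adjusted p = 0.619 in edgeR; -0.0997 without PGR-B OE replicate 2). Gnao1 and Gnaz were 4.76% of the 42, where 3.85% of all genes did not overlap. The 10 smooth muscle markers had log2 changes below 0 in that comparison. The mural cell sum was 555 to 606 CPM in PGR-B OE, against 622 to 719 CPM in PGR-A OE, without overlap, and the part of both in the values was not tested.

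With both overexpression groups set together against the control, 0 of the 42 members passed in edgeR, in a comparison that called 0.482% of all genes; limma voom called 0 (0.495% of all genes) and DESeq2 called Gnao1 (2.76% of all genes). At an unadjusted p under 0.05 there were 7 members (16.7%), where 14.1% of all genes passed. The log2 change was 0.43 for Gnao1 (SE 0.11, adjusted p = 0.129 in edgeR and 0.0181 in DESeq2), for Gng12 -0.41 (SE 0.13, adjusted p = 0.216 in edgeR) and for Gng5 -0.25 (SE 0.08, adjusted p = 0.223 in edgeR). Gna13, Gnb5, Rgs2 and Gng7 had -0.17, 0.20, 0.47 and 0.48, with adjusted p values of 0.292 to 0.355 in edgeR. None of the 42 members separated all 8 overexpression libraries from the 4 controls, where 2.07% of all genes did.

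Other genes of the pathway were followed in a list of 38 partners: receptor kinases, arrestins, chaperones, guanine nucleotide exchange factors, phospholipase C beta genes and further RGS-domain proteins. Of these, 36 were in the table, 31 were tested, and 0 passed in edgeR in any of the 4 comparisons. DESeq2 called 2 in PGR-A OE against control (Grk5 and Snx13), 2 in PGR-B OE against control (Grk5 and Arhgef12) and 0 between the isoforms. The 2 were 6.45% of the 31 in each, where DESeq2 called 3.64% of all genes in PGR-A OE and 1.43% in PGR-B OE against control. The list was chosen with earlier results of these data known, so its share cannot be read as a result about the pathway. Grk5, a kinase that marks active receptors for arrestin, averaged 18.0 ± 0.815 CPM in PGR-B OE, 17.7 ± 0.992 CPM in PGR-A OE and 14.4 ± 1.27 CPM in control uteri (SD, n = 4 each). Neither overexpression group overlapped the control in Grk5, where 5.67% of all genes in PGR-B OE and 10.6% in PGR-A OE did not overlap it. The log2 change was 0.33 (SE 0.08) in PGR-B OE and 0.30 (SE 0.08) in PGR-A OE. The adjusted p was 0.169 in edgeR and 0.0184 in DESeq2 for PGR-B OE, and 0.124 in edgeR and 0.0275 in DESeq2 for PGR-A OE.

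Snx13, a sorting nexin with an RGS domain, averaged 54.6 ± 5.80 CPM in PGR-B OE, 52.1 ± 1.13 CPM in PGR-A OE and 63.6 ± 4.29 CPM in control uteri, with log2 changes of -0.22 (SE 0.08, adjusted p = 0.421 in edgeR) in PGR-B OE and -0.29 (SE 0.08, adjusted p = 0.132 in edgeR and 0.0397 in DESeq2) in PGR-A OE. Arhgef12, an exchange factor activated by G12 and G13, averaged 102 ± 2.86 CPM in PGR-B OE and 116 ± 3.70 CPM in control uteri (log2 change -0.19, SE 0.06, adjusted p = 0.301 in edgeR and 0.0351 in DESeq2). Rgs7bp, a membrane anchor of the R7 complex, averaged 3.88 ± 0.594 CPM in PGR-B OE and 5.33 ± 0.587 CPM in control uteri (log2 change -0.46, SE 0.15, adjusted p = 0.347 in edgeR). Ric8b, a chaperone of Gs alpha, averaged 21.7 ± 0.685 CPM in PGR-A OE and 24.5 ± 0.927 CPM in control uteri (log2 change -0.18, SE 0.08, adjusted p = 0.31 in edgeR), and Arhgef1, an exchange factor with an RGS domain, averaged 195 ± 6.46 CPM in PGR-A OE and 177 ± 4.52 CPM in control uteri (log2 change 0.14, SE 0.07, adjusted p = 0.338).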

How the data were processed

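RNA of uterine tissue was sequenced as paired-end reads of 75 bp after TruSeq library preparation, per the labels' protocols. The authors deposited 1 table of raw read counts per gene with a gene length. Per the submitters' processing notes, the tools were STAR 2.7.0f, Bowtie2 2.2.5, Subread 1.6.4, featureCounts and DESeq2, on GRCm38 (mm10). Which tool did what, which annotation was counted and whether strand was used is not given in those notes.

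Counts were fitted for all 12 libraries in 1 model with edgeR 4.0.16 (robust quasi-likelihood F test, TMM scaling, filterByExpr) in R 4.3.3, with 15561 of 24964 genes tested and p-values adjusted by Benjamini-Hochberg over all of them at 0.05. The SE is the log2 change divided by the square root of F, and intervals use the t distribution at edgeR's total degrees of freedom. DESeq2 1.42.0 and limma 3.58.1 (voom) were alternatives, and the scripts were tested on simulated data. CPM are TMM-scaled, and per-length values divide them by the deposited length. Positions are from GENCODE vM21 (GRCm38), where the exons of 18 members overlap another gene model.

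Groups and replicate numbers came from the titles. The labels do not say that replicates are separate animals, so p-values measure only the spread between these samples. The pairing by number was checked and did not hold, and no batch is given in the labels. The members, the lists and the motifs were chosen with earlier results of these data known. Named were Gnaq, Gna11, Rgs2, Rgs4, Rgs5, the highest member of each class by level, up to 10 members a comparison with an unadjusted p under 0.05 and a mean of at least 1 CPM, and the 4 partners with the lowest p; any other gene was named after its values were seen.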

Additional observations from a re-analysis of the deposited data

Results flagged for a closer look

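In 66 groups of 4 libraries (22 named members in 3 groups), 2 had a library far from the other 3. The measure was the gap of that library to the nearest one over the range of the group. Chance gives about 1 in 20 groups, so 2 of 66 is not more than chance gives. Both flags fell on PGR-A OE replicate 4, the library that stood apart on the first principal component. Gnaq was at 109.2 CPM there, against 82.1 to 83.4 CPM in the other PGR-A OE libraries. Gna11, which encodes the closest relative of Gq alpha, was at 81.6 CPM there, against 89.3 to 90.8 CPM in the others. Without that library the log2 change of PGR-A OE against control was -0.07 for Gnaq (adjusted p = 0.794 in edgeR) and 0.01 for Gna11 (adjusted p = 0.959).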

How the results depend on the processing

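The count of members called in edgeR stayed at 0 in the 4 comparisons under both other scalings, without a filter, with a mean of at least 1 CPM, with limma voom and without both replicates 4 of PGR-A OE and control (chosen after seeing the data), and in the 3 comparisons of single groups with only the libraries compared. DESeq2 called 1 (Gnao1) in PGR-A OE against control and 1 (Gnao1) with both groups together. Leaving out 1 library at a time gave 0 to 1 in each of these comparisons (1 without control replicate 3) and 0 in the others. DESeq2 called 2 pathway partners in PGR-A OE, in PGR-B OE and with both groups together. The fit with the replicate number as a block called 0 members in each comparison; 1 of 12 correlations between same-numbered libraries was over 0.1 (-0.26 to 0.19), and 2 libraries correlated best with their own number.

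For Pgr in PGR-A OE, the log2 change was 0.72 (adjusted p = 0.0902 in edgeR) with only the libraries compared, 0.72 (0.122) with the block, 0.52 (0.0906) without both replicates 4, and 0.58 to 0.81 (0.0455 to 0.127) leaving out 1 library, passing without PGR-A OE replicate 1 or PGR-B OE replicate 1 or 4 only. In PGR-B OE it was 0.88 (0.0975) with the block and 0.82 to 0.97 (0.00435 to 0.0784) leaving out 1 library, not passing without control replicate 2, 3 or 4 or PGR-B OE replicate 1, 2 or 3. The cause was not tested. Over all genes the settings other than leaving out 1 library called 63 to 564 (102 as reported) in PGR-A OE against control, 32 to 221 (48) in PGR-B OE against control, 7 to 126 (18) between the isoforms and 52 to 428 (75) with both groups together, the highest by DESeq2 in each. Leaving out 1 library moved these counts by over 1.5 times for PGR-A OE against control without control replicate 1 (32) or 2 (43) or PGR-A OE replicate 1 (44) or 2 (56), for PGR-B OE against control without control replicate 1 (24) or 2 (22), PGR-B OE replicate 4 (28) or PGR-A OE replicate 4 (100), between the isoforms without PGR-A OE replicate 1 (11), 2 (11) or 4 (31) or PGR-B OE replicate 1 (11), and with both groups together without control replicate 1 (39) or 2 (40).

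Of the other values of named genes, 791 kept direction and side, 8 passed the threshold (Gnao1, Grk5, Snx13, Arhgef12) and 36 changed sign, all of changes that did not pass. With upper-quartile scaling the log2 change was 0.00899 for Gna11 and 0.0247 for Rgs22 in PGR-A OE against control, and 0.000945 for Gna11, 0.024 for Gnai2 and 0.00445 for Gnb2 with both groups together, where Gnai2 was 0.000451 at a mean of at least 1 CPM. Without both replicates 4 it was -0.142 for Gnaq and 0.0308 for Gna11 in PGR-A OE against control, 0.047 for Gnaq between the isoforms, and -0.118 for Gnaq, 0.0107 for Gna11, -0.0101 for Rgs5 and 0.0302 for Gnb2 with both groups together. Leaving out 1 library, PGR-A OE against control ranged from -0.0691 to 0.101 for Gnaq, -0.0427 to 0.0108 for Gna11, -0.257 to 0.292 for Rgs4, -0.104 to 0.0306 for Rgs5, -0.0195 to 0.0422 for Gnb2 and -0.209 to 0.17 for Rgs22. PGR-B OE against control ranged from -0.0973 to 0.0338 for Gnaq, -0.0823 to 0.0116 for Gnai2, -0.096 to 0.0351 for Gna12, -0.0597 to 0.127 for Rgs10, -0.00986 to 0.135 for Rgs19 and -6.78e-05 to 0.558 for Rgs22. PGR-B OE against PGR-A OE ranged from -0.105 to 0.0422 for Gnaq, -0.0447 to 0.00553 for Gna11, -0.0779 to 0.289 for Rgs2, -0.0518 to 0.0118 for Gnas, -0.0866 to 0.0269 for Rgs19 and -0.265 to 0.0577 for Rgs11. Both groups together ranged from -0.0629 to 0.0675 for Gnaq, -0.0131 to 0.119 for Rgs5, -0.0256 to 0.0213 for Gnai2, -0.0491 to 0.011 for Gnb2 and -0.0033 to 0.364 for Rgs22. Depth limits statements on the 10 members not tested and on those near 1 CPM.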
